A study of Mus musculus with 6 samples.

Results

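The chemokine genes and the genes of their receptors were followed in mouse bone marrow cells that carried either wild type MLLT3 or its double mutant K63E K67E. The members were taken by symbol, as genes whose names start with Ccl, Cxcl, Cx3cl, Xcl, Ccr, Cxcr, Cx3cr, Xcr or Ackr followed by a number and at most 1 letter. Of 55487 genes in the table, 68 had such a name, and the 56 with a value other than 0 in any library were kept, 34 ligands and 22 receptors. The 12 others, copies of Ccl19, Ccl21, Ccl27a and Ccl27b, were listed at 0 in all 6 libraries. The naming rule uses no difference between the groups.

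The cells were Kit+ cells of whole bone marrow, transduced with an overexpressing lentivirus for wild type MLLT3 (WT, 3 libraries) or the double mutant (DM, 3 libraries), sorted, and grown for 8 days in methylcellulose. The medium held Flt3L at 10 ng/mL, 7 other cytokines (among them EPO, SCF, GM-CSF, IL-3, IL-6 and IL-11) at 20 ng/mL each, gentamicin at 50 µg/mL, and 4-hydroxytamoxifen at 200 nM to delete the endogenous Mllt3 gene. All 6 libraries received tamoxifen and a vector, so neither group shows cells with an intact Mllt3 gene alone, and the labels name neither the recombinase nor the age of the mice. Nothing in the labels says that the 3 libraries of a group came from separate mice or transductions, and p-values then measure only the spread between these libraries, which may be technical. All libraries were in batch 1, and their medians over 18766 tested genes lay between 8.03 and 8.11. Mllt3, which is read from the vector and from any undeleted gene together, was 12.64 ± 0.216 (SD, n = 3) in WT and 12.16 ± 0.249 in DM (change -0.48, SE 0.137, limma adjusted p 0.0448), and the libraries of the groups overlapped. Levels are given as rlog, the regularized logarithm to base 2, in which weakly expressed genes are shrunk toward their mean; the depth is unknown.

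Chemokines are small secreted proteins that steer the movement of leukocytes through receptors coupled to G proteins. They are grouped by the spacing of their first cysteines into the CC (Ccl), CXC (Cxcl), CX3C and XC classes, and the atypical receptors (Ackr) bind and remove them without coupling to G proteins. In bone marrow, Cxcl12 made by stromal cells retains stem cells and neutrophils through Cxcr4, ligands of Cxcr2 release neutrophils, and Ccr2 lets monocytes leave for the blood, while monocytes and macrophages are major makers of CC chemokines.

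The level filter, a mean of 3 or more across libraries, was passed by 37 of the 56 members, 23 ligands and 14 receptors. The 19 members below it were 11 ligands (Cxcl14, Cxcl11, Ccl8, Cxcl9, Cxcl15, Xcl1, Ccl26, Cxcl17, Ccl11, Cxcl13 and Ccl20) and 8 receptors (Ccr10, Ccr9, Ackr2, Ackr3, Ccr8, Ccr6, Xcr1 and Cxcr6). Nearest to the filter, Ccr9 (2.85) and Ccr10 (2.98) lay outside it and Cxcr3 (3.03) and Ccl28 (3.14) inside.

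With limma over all 18766 tested genes and an adjusted p under 0.05, 10 of the 23 tested ligands differed between DM and WT, 8 higher and 2 lower in DM. Of the 14 tested receptors 4 differed, 1 higher and 3 lower. Together 14 of 37 tested members (37.8%) were called, beside 13.9% of all tested genes. The 9 called higher (Ccl6, Ccl9, Ccl3, Ccl4, Cxcl1, Cxcl2, Cxcl3, Cxcl16 and Ccr1) stand beside a background of 9.2%, and the 5 called lower (Ccl24, Ccl12, Cxcr4, Cxcr2 and Ccr2) beside 4.71%. All of them but Ccl24 changed by less than 2-fold, and a called change of 2-fold or more was found for 0.432% of all tested genes. The libraries of the groups did not overlap in 17 of the 37, 10 higher and 7 lower in DM, beside 35.8% of all tested genes (21.5% higher and 14.3% lower). The median change was 0.18 over the tested ligands, -0.07 over the tested receptors and 0.01 over all tested genes. The calls depended on single libraries: 8 members, 5 of them ligands, were called without WT replicate 1, and 2 receptors without DM replicate 2.

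**Figure D1:**
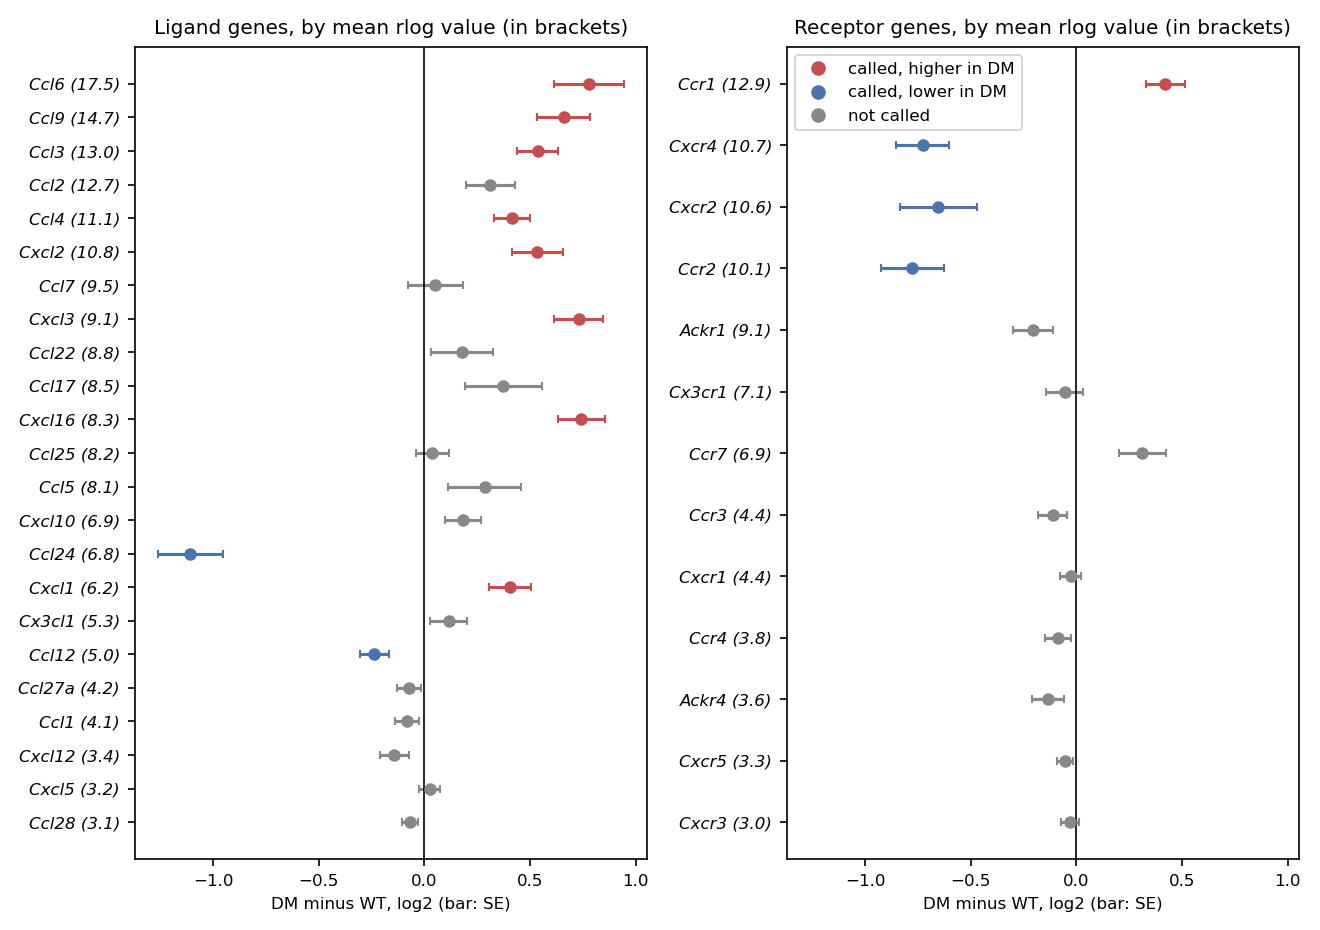
Change from WT to DM (x axis, difference of mean rlog values on the log2 scale, bars show the SE of limma) for the 23 ligand genes and 13 of the 14 receptor genes that passed the filter, ordered from top to bottom by the mean rlog value given in brackets. Red points (9 genes) were called higher in DM, blue points (5 genes) lower, and grey points were not called; the points at low levels lie close to 0.

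The promoters of the members that differed were searched next, because Cxcl1, Cxcl2 and Cxcl3, which rose together, are textbook targets of NF-kB. RefSeq promoters on GRCm38.p6 were matched by symbol for 41 of the 56 members and for 11 of the 14 called members; Ccl4, Cxcl16 and Ccl24 had no entry. In the 250 bases before each start, the letters GGGNNNNTCC, a loose form of the NF-kB site, were searched on both strands. They were found in 6 of the 11 promoters, printed here 5′ to 3′ along the gene with every match in capitals:

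Cxcl1, chr5:90890995-90891244, plus strand: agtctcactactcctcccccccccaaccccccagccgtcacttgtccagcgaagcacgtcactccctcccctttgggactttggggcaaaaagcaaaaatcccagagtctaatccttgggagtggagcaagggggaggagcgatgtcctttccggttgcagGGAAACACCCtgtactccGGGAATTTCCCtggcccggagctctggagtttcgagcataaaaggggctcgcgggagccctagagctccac
Cxcl2, chr5:90903649-90903898, plus strand: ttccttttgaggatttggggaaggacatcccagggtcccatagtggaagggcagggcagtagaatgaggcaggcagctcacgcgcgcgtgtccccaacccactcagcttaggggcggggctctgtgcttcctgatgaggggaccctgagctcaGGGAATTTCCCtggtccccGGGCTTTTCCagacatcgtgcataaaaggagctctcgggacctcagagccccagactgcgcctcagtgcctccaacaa
Cxcl3, chr5:90785851-90786100, plus strand: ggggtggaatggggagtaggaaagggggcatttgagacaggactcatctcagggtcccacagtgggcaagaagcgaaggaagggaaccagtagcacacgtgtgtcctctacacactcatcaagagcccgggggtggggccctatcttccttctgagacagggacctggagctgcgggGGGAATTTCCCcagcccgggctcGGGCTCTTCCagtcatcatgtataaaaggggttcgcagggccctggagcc
Ccl9, chr11:83578637-83578886, minus strand: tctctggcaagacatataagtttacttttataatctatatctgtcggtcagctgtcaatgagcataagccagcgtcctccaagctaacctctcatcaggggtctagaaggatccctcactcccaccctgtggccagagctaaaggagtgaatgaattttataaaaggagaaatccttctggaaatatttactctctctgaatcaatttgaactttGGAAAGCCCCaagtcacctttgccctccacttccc
Ccr1, chr9:123968693-123968942, minus strand: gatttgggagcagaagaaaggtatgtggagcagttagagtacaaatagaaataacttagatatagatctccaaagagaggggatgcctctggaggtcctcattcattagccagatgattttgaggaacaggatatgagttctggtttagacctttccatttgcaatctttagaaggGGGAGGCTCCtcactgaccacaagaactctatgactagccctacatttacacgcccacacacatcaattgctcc
Cxcr2, chr1:74153744-74153993, plus strand: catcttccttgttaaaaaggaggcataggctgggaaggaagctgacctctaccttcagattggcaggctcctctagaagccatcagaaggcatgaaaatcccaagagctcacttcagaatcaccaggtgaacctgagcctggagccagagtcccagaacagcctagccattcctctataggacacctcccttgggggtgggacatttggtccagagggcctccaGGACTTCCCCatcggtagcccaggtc

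The run GGGAATTTCCC stood in all 3 of the Cxcl promoters, at bases 71 to 61 before the start of Cxcl1, 97 to 87 before that of Cxcl2 and 73 to 63 before that of Cxcl3. A further match lay upstream of it in Cxcl1 and downstream of it in Cxcl2 and Cxcl3. Promoters with the searched letters made up 16.5% of all 32851 RefSeq promoters, 16 of the 45 promoters of members (35.6%, called or not) and 5 of the 7 promoters of members called higher (Cxcl1, Cxcl2, Cxcl3, Ccl9 and Ccr1). Cxcl1, Cxcl2 and Cxcl3 are related genes of the same cluster that share the run above, so they are not 3 independent promoters. Among the 4 promoters of members called lower, that of Cxcr2 held a match. The letters were absent from the windows of Ccl6 and Ccl3, which rose, and of Ccl12, Cxcr4 and Ccr2, which fell. These windows without a match are not printed. The letters were also present in the windows of Ackr4, Ccl1, Ccl22, Ccr3 and Cxcl10, which were tested and not called. They were present too in windows of Ackr2, Ccl20, Ccr6, Ccr8 and Ccr9, which were below the filter. Of 3 other motifs searched on both strands, the AP-1 letters TGANTCA were in the promoter of Ccl9 alone among the 11 (6.75% of all promoters), the PU.1 letters AGGAAGT in those of Ccl6 and Ccl12 (7.69%), and the C/EBP letters TTNNGCAA in none (9.56%). These are descriptions of letters, chosen after the values were seen, and binding of a factor was not measured.

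Among the ligands, Ccl6, Ccl9, Ccl3 and Ccl4, CC chemokines made by myeloid cells, were called higher in DM, and Ccl6 and Ccl9 had the highest values. Ccl6 (ENSMUSG00000018927.3; chromosome 11, 83587882 to 83593087, minus strand), a mouse CC chemokine made by myeloid cells, had rlog values of 16.99, 17.38 and 16.90 under WT and 17.65, 18.12 and 17.82 under DM, always given here in the order of replicates 1, 2 and 3. All DM libraries lay above all WT libraries, and the change was 0.78 in log2 units (1.72-fold, with SE 0.165 and a limma adjusted p of 0.0142). The call was lost after quantile normalization (0.56, limma adjusted p 0.0569), and when WT replicate 1 (0.73, 0.0609), WT replicate 3 (0.68, 0.0644) or DM replicate 2 (0.65, 0.0532) was left out. The gene E230016K23Rik lies on the opposite strand of Ccl6, with a mean of 7.68; whether reads were counted by strand is not given in the sources used here.

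Ccl9 (ENSMUSG00000019122.8; chromosome 11, 83572919 to 83578636, minus strand), a neighbour of Ccl6 and like it a ligand of Ccr1, read 14.27, 14.67 and 14.13 in WT and 15.05, 14.98 and 15.02 in DM. The DM libraries lay close together and the WT libraries were more spread, with replicate 2 the highest of them and still 0.31 below DM. The mean went from 14.36 ± 0.277 (SD, n = 3) to 15.02 ± 0.038, a change of 0.66 (1.58-fold, SE 0.128, limma adjusted p 0.0101). Ccl9 kept its call in all 12 alternatives.

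Ccl3 (ENSMUSG00000000982.5; chromosome 11, 83647844 to 83649355, minus strand) encodes MIP-1 alpha, a ligand of Ccr1. It read 12.56, 12.91 and 12.86 in WT and 13.28, 13.36 and 13.29 in DM, so WT replicate 1 was the lowest library and the groups were apart by 0.37. The change was 0.54 (1.45-fold, SE 0.0974, limma adjusted p 0.00828), called in all 12 alternatives. Ccl4 (ENSMUSG00000018930.3; chromosome 11, 83662584 to 83664683, plus strand), which encodes MIP-1 beta, an attractant of monocytes and T cells, read 10.68, 10.95 and 10.91 in WT and 11.19, 11.28 and 11.32 in DM. Again WT replicate 1 was the lowest, and the change was 0.41 (1.33-fold, SE 0.0848, limma adjusted p 0.0124). The call of Ccl4 was lost without WT replicate 1 (0.33, limma adjusted p 0.0501), DM replicate 2 (0.41, 0.0505) or DM replicate 3 (0.38, 0.0534).

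Of the 4 tested CXC ligands of Cxcr2, which draw neutrophils, Cxcl1, Cxcl2 and Cxcl3 rose and Cxcl5 was not called. Cxcl3 (ENSMUSG00000029379.10; chromosome 5, 90786103 to 90789600, plus strand) read 8.61, 8.90 and 8.82 in WT and 9.72, 9.28 and 9.52 in DM, with no overlap. Its change of 0.73 (1.66-fold, SE 0.115, limma adjusted p 0.00531) was called in all 12 alternatives. Cxcl2 (ENSMUSG00000058427.10; chromosome 5, 90903871 to 90905938, plus strand) read 10.47, 10.50 and 10.68 in WT and 11.03, 10.85 and 11.37 in DM. DM replicate 2 was the lowest of its group for Cxcl3, Cxcl2 and Cxcl1. The change of Cxcl2 was 0.54 (1.45-fold, SE 0.122, limma adjusted p 0.0186), and its call was lost after quantile normalization (0.44, 0.0634) and without WT replicate 1 (0.49, 0.0702). Of the 50-base words in the transcripts of Cxcl2, 5.84% also occurred in Cxcl3 (3.51% of those of Cxcl3); how many reads this touches was not measured.

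Cxcl1 (ENSMUSG00000029380.11; chromosome 5, 90891241 to 90893115, plus strand), the third neutrophil attractant of this cluster, read 5.90, 6.01 and 6.12 in WT and 6.62, 6.27 and 6.35 in DM. The change was 0.40 (1.32-fold, SE 0.0991, limma adjusted p 0.0252), with a gap of 0.15 between the groups. It lost the call without WT replicate 1 (0.35, limma adjusted p 0.098), DM replicate 1 (0.30, 0.0659) or DM replicate 3 (0.44, 0.0525). Cxcl5, another ligand of Cxcr2, lay near the filter at 3.17 ± 0.0813 in WT and 3.19 ± 0.0532 in DM (SD, n = 3; limma adjusted p 0.758).

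Cxcl16 (ENSMUSG00000018920.11; chromosome 11, 70453983 to 70459984, minus strand) encodes a chemokine anchored in the membrane that also takes up oxidized lipoprotein and can be shed by ADAM proteases. It read 7.82, 8.20 and 7.75 in WT and 8.72, 8.64 and 8.64 in DM. Every DM library stood at least 0.44 above every WT library, the widest gap among the members that rose. The change was 0.74 (1.67-fold, SE 0.11, limma adjusted p 0.00411), called in all 12 alternatives. Zmynd15 lies on the opposite strand at a mean of 4.34, and Cxcr6, the receptor of Cxcl16, was below the filter at 0.52.

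**Figure D2:**
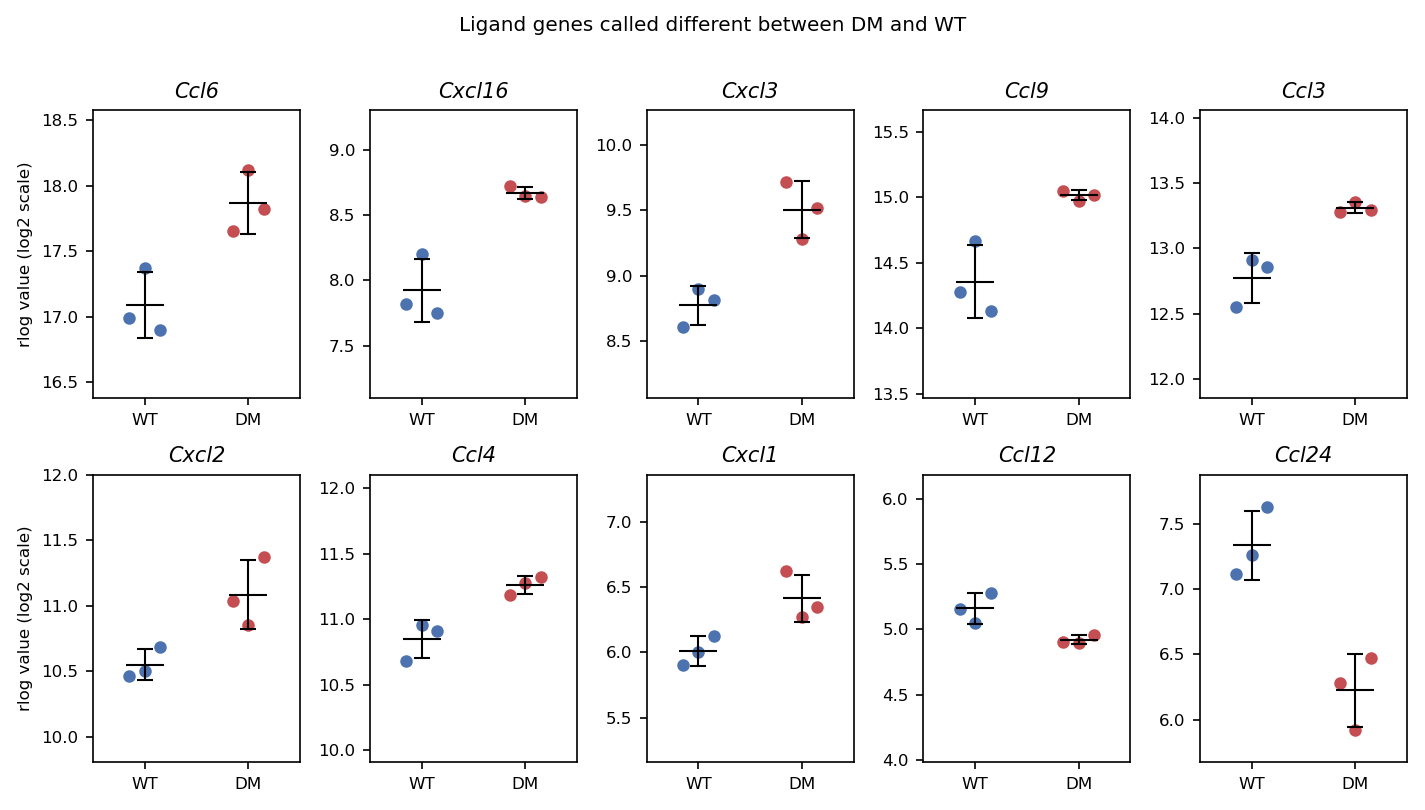
rlog values (y axis, log2 scale, every panel spans the same range of 2.2) of the 10 called ligand genes in the 3 WT libraries (blue) and 3 DM libraries (red), replicates 1 to 3 from left to right, with the mean and SD in black. Ccl6, Cxcl16, Cxcl3, Ccl9, Ccl3, Cxcl2, Ccl4 and Cxcl1 were higher in all 3 DM libraries, and Ccl12 and Ccl24 lower.

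In the opposite direction, Ccl24 (ENSMUSG00000004814.10; chromosome 5, 135569937 to 135573049, minus strand), which encodes eotaxin-2, an attractant of eosinophils through Ccr3, read 7.12, 7.26 and 7.63 in WT and 6.28, 5.92 and 6.47 in DM. The highest DM library stood 0.65 below the lowest WT library. The change of -1.11 (a level 2.16-fold lower, SE 0.154, limma adjusted p 0.00308) was the largest of the tested members, and it was called in all 12 alternatives, running from -1.23 to -0.96 when single libraries were left out. Ccr3 itself was low, at 4.50 ± 0.0792 in WT and 4.39 ± 0.113 in DM (SD, n = 3; limma adjusted p 0.305). Ccl12 (ENSMUSG00000035352.3; chromosome 11, 82101845 to 82103400, plus strand), a ligand of Ccr2, read 5.16, 5.05 and 5.28 in WT and 4.91, 4.90 and 4.96 in DM, a small shift of -0.24 (SE 0.0686, limma adjusted p 0.0462). The groups were 0.09 apart, and the call of Ccl12 was lost in 9 of 12 alternatives, with a limma adjusted p of up to 0.137.

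Of the 13 tested ligands that were not called, Ccl2, Ccl7, Ccl22 and Ccl17 had the highest values. Ccl2, the main attractant of monocytes, read 12.73, 12.60 and 12.36 in WT and 12.93, 12.67 and 13.03 in DM, where the groups overlapped (change 0.31, SE 0.117, limma adjusted p 0.109). Ccl7, a ligand of Ccr2 next to Ccl2, read 9.51, 9.52 and 9.30 in WT and 9.60, 9.16 and 9.71 in DM, and the DM libraries held both its highest and its lowest value (change 0.05, SE 0.131, limma adjusted p 0.821). Ccl22 and Ccl17 are ligands of Ccr4 made by dendritic cells and macrophages. Ccl22 read 8.42, 8.95 and 8.82 in WT and 8.91, 9.13 and 8.67 in DM (change 0.18, SE 0.146, limma adjusted p 0.441). Ccl17 read 7.90, 8.63 and 8.29 in WT and 8.99, 8.52 and 8.44 in DM (change 0.37, SE 0.183, limma adjusted p 0.208). In each of these 4 genes the WT and DM libraries overlapped.

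Ccl5 stood out for the spread of DM, with 7.86, 8.13 and 7.82 in WT and 8.50, 7.75 and 8.41 in DM. The groups overlapped because of DM replicate 2, the lowest of all 6. The change was 0.29 (limma adjusted p 0.3), and without DM replicate 2 it was 0.52 (limma adjusted p 0.0271, from 0.0271 to 0.64 over the alternatives). The other 8 ligands not called were Ccl25, Cxcl10, Cx3cl1, Ccl27a, Ccl1, Cxcl12, Cxcl5 and Ccl28, with changes from -0.14 (Cxcl12) to 0.18 (Cxcl10); the groups did not overlap in Cxcl12 and Ccl28. Ccl25 and Ccl27a lie opposite the higher genes Elavl1 (11.71) and Il11ra1 (10.34), so their values are uncertain without strand. Il11ra1 was itself called, at 0.72 (limma adjusted p 0.0153).

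Receptors moved in both directions. Ccr1 (ENSMUSG00000025804.5; chromosome 9, 123962124 to 123968692, minus strand), the receptor of Ccl3, Ccl6 and Ccl9 on myeloid cells, read 12.58, 12.83 and 12.66 in WT and 12.96, 13.20 and 13.16 in DM. The change was 0.42 (1.34-fold, SE 0.0929, limma adjusted p 0.0164) with no overlap between the groups. It lost its call without WT replicate 1 (0.37, limma adjusted p 0.0777), DM replicate 2 (0.37, 0.0756) or DM replicate 3 (0.39, 0.0689), so that in these fits no receptor was called higher.

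Ccr2 (ENSMUSG00000049103.14; chromosome 9, 124101950 to 124113557, plus strand), the receptor by which monocytes leave the marrow, read 10.47, 10.44 and 10.66 in WT and 9.52, 9.57 and 10.15 in DM. The WT libraries lay close together, and DM replicate 3 was the nearest of the DM libraries to them. The change was -0.78 (a level 1.72-fold lower, SE 0.149, limma adjusted p 0.00975), called in all 12 alternatives.

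Cxcr4 (ENSMUSG00000045382.6; chromosome 1, 128588199 to 128592293, minus strand), which holds progenitors and immature neutrophils in the marrow, read 10.88, 11.22 and 11.10 in WT and 10.05, 10.51 and 10.44 in DM. The groups were 0.37 apart and the change was -0.73 (a level 1.66-fold lower, SE 0.125, limma adjusted p 0.00698), called in all 12 alternatives. Its ligand Cxcl12 was near the filter, at 3.41, 3.38 and 3.66 in WT and 3.35, 3.36 and 3.32 in DM (limma adjusted p 0.2). Ackr3, the other receptor of Cxcl12, was below the filter at 2.71.

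Cxcr2 (ENSMUSG00000026180.8; chromosome 1, 74153989 to 74161246, plus strand), the receptor of neutrophils for Cxcl1, Cxcl2 and Cxcl3, read 10.57, 10.94 and 11.21 in WT and 10.09, 10.02 and 10.65 in DM. DM replicate 3 lay above WT replicate 1, so the groups overlapped. The change was -0.65 (a level 1.57-fold lower, SE 0.183, limma adjusted p 0.042). The call was lost in 6 of 12 alternatives, with a limma adjusted p of up to 0.14, reached without DM replicate 2. Cxcr1, its neighbour, was at 4.45 ± 0.0445 in WT and 4.42 ± 0.0316 in DM (SD, n = 3).

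**Figure D3:**
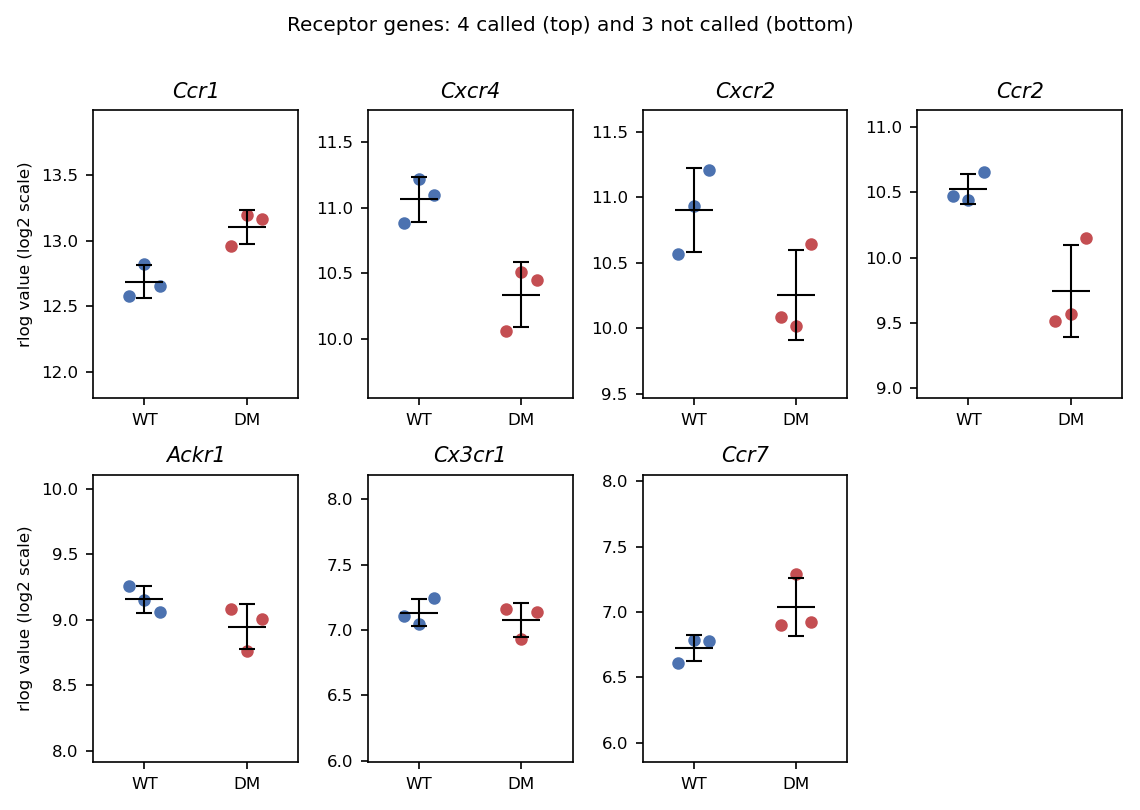
rlog values (y axis, log2 scale, every panel spans the same range of 2.2) of 7 receptor genes in the 3 WT libraries (blue) and 3 DM libraries (red), replicates 1 to 3 from left to right, with the mean and SD in black. In the top row Ccr1 was higher in DM, Cxcr4 and Ccr2 were lower in all 3 DM libraries, and Cxcr2 was lower with an overlap; the groups overlapped in the bottom row except for Ccr7.

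Further receptors with high values were Ackr1, Cx3cr1 and Ccr7, none of them called. Ackr1, a scavenging receptor of red cell precursors and vessels, read 9.26, 9.15 and 9.06 in WT and 9.09, 8.76 and 9.003 in DM (change -0.21, SE 0.0949, limma adjusted p 0.18); it overlaps Cadm3 on the same strand, which was higher at 11.67. Cx3cr1, the receptor of Cx3cl1 on monocytes, read 7.10, 7.05 and 7.25 in WT and 7.16, 6.93 and 7.14 in DM (change -0.05, SE 0.0877, limma adjusted p 0.706). The annotated span of Cx3cr1 overlaps the higher genes Csrnp1 (9.76) and Gorasp1 (8.47) on the same strand and Wdr48 (10.73) on the opposite strand. It also overlaps Ttc21a (7.28) on the opposite strand, which was itself called lower, at -1.14 (limma adjusted p 0.000118). Ccr7, which guides dendritic cells to lymph nodes, read 6.61, 6.78 and 6.78 in WT and 6.90, 7.29 and 6.92 in DM. All DM libraries were above all WT libraries for Ccr7, yet the change of 0.31 (SE 0.109) had a limma adjusted p of 0.0896. Another 6 receptors (Ccr3, Cxcr1, Ccr4, Ackr4, Cxcr5 and Cxcr3) had means from 3.03 to 4.45 and changes from -0.13 (Ackr4) to -0.03 (Cxcr1), none called. Cxcr5 and Ackr4 lie opposite the higher genes Bcl9l (10.19) and Acad11 (9.35).

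To compare levels between genes, each rlog value was lowered by the log2 of the exon length in kilobases. On this scale of mean level per length, Ccl6 led the ligands at 16.63, followed by Ccl3 (13.43), Ccl9 (13.08), Ccl2 (12.53) and Ccl4 (11.65). Among the receptors described here Ccr1 led at 11.39, before Cxcr4 (9.85), Cxcr2 (8.97), Ackr1 (8.56) and Ccr2 (7.38). Taken back to a linear scale per length, Ccl6 made up 73.8% ± 1.76 (SD, n = 3) of the sum over the tested ligands in WT and 77.5% ± 3.23 in DM. Ccr1 made up 45.9% ± 1.6 of the sum over the tested receptors in WT and 61% ± 1.94 in DM, Cxcr4 23.4% ± 0.723 and 14% ± 1.21, and Cxcr2 12.5% ± 2.2 and 7.93% ± 1.56. These shares describe the same calls on another scale and were not tested.

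Some members lie in clusters, which the choice by name did not use, and the others lie alone or in pairs. Calls in the clusters stand beside 13.9% of all tested genes called (9.2% higher and 4.71% lower) and 37.8% of the tested members. The cluster of Ccl5, Ccl9, Ccl6, Ccl3 and Ccl4 on chromosome 11 (83525778 to 83664683) had 4 of its 5 genes called, all 4 higher in DM. The cluster of Ccl2, Ccl7, Ccl11, Ccl12, Ccl8 and Ccl1 on the same chromosome (82035571 to 82305690) had 4 tested genes, of which Ccl12 alone was called, and it was lower. Of Cxcl5, Cxcl3, Cxcl15, Cxcl1 and Cxcl2 on chromosome 5 (90759360 to 90905938), 4 were tested and 3 called, all higher. Of Cxcl9, Cxcl10 and Cxcl11, also on chromosome 5, 1 was tested and 0 were called. Of Ccl22, Cx3cl1 and Ccl17 on chromosome 8, all 3 were tested and 0 were called. In the receptor cluster of chromosome 9, Ccr1 was called higher and Ccr2 lower, and Ccr3, which lies between them, was not called. Coordinates are of GENCODE M21 on GRCm38, the build that the submitters' notes name as mm10.

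**Figure D4:**
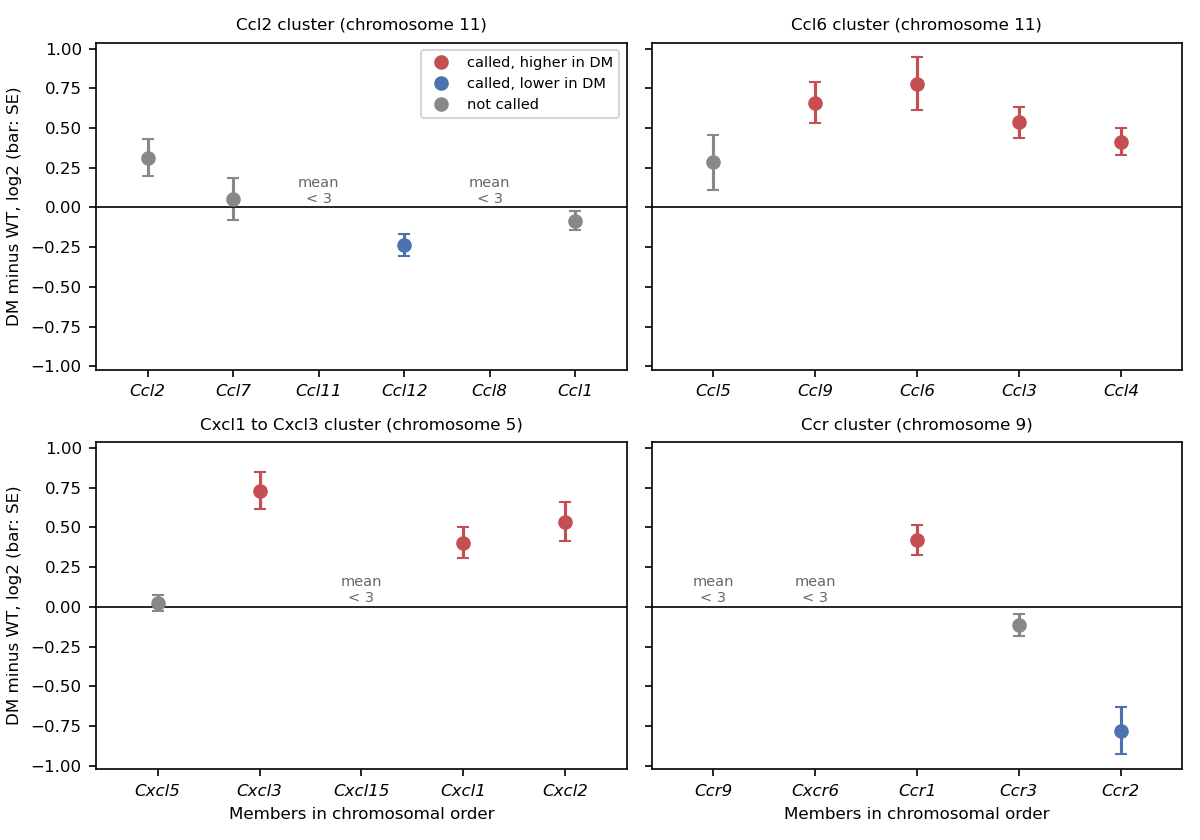
Change from WT to DM (y axis, difference of mean rlog values on the log2 scale, bars show the SE) for the members of 4 gene clusters in chromosomal order (x axis, order only). Red was called higher in DM, blue lower and grey not called; 4 of 5 genes in the Ccl6 cluster were called higher, while the Ccr cluster held Ccr1 called higher and Ccr2 called lower.

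Ligands were then set beside their receptors, using 39 textbook pairs. In 23 pairs both genes were tested, and in 7 both were called. In 4 of these 7 the genes changed in the same direction: Ccr1 rose with Ccl3, Ccl6 and Ccl9, and Ccr2 fell with Ccl12. In the other 3 Cxcr2 fell while Cxcl1, Cxcl2 and Cxcl3 rose. The pairs share genes and libraries, and the counts are given without a test.

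Genes that act with chemokines were read from 4 lists of 12 to 37 genes. Of 37 genes that carry the signal of chemokine receptors, 11 were called (29.7%, beside 13.9% of all tested genes), 9 higher and 2 lower, with a median change of 0.15. Rasgrp2, which activates the small GTPase Rap1 for adhesion, fell by 1.18 in log2 units (SE 0.0962, limma adjusted p 0.000164). Pik3r5, a subunit of the PI3-kinase gamma that G proteins activate, rose by 0.64 (SE 0.139, limma adjusted p 0.0159), the G protein subunit Gnaq by 0.56 (SE 0.117, 0.013), and Grk5, a kinase that desensitizes receptors, by 0.39 (SE 0.0664, 0.00664). Of 12 NF-kB factors and feedback genes, 6 were called, all 6 higher (50%, beside 9.2% of all tested genes), with a median change of 0.22. Among them the feedback genes Tnip1 (0.43, SE 0.0713, limma adjusted p 0.00626) and Tnfaip3 (0.39, SE 0.0751, 0.0101) and the subunit gene Nfkb2 (0.36, SE 0.0835, 0.0194) had the largest changes, followed by Nfkbie (0.36, SE 0.0848, 0.0225). The 6 not called were Nfkb1, Rela, Nfkbia, Nfkbib, Nfkbiz and Bcl3, with changes from 0.06 (Nfkb1) to 0.20 (Rela).

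Of 12 proteases known to cut chemokines, 6 were called (50%, beside 13.9% of all tested genes), 3 higher and 3 lower, with a median change of 0.12. The neutrophil serine proteases Elane and Prtn3 fell by 3.96 (SE 0.261, limma adjusted p 0.000118) and 3.37 (SE 0.236, 0.000118). The metalloproteases Mmp14 and Mmp12 rose by 1.02 (SE 0.14, limma adjusted p 0.00303) and 0.81 (SE 0.199, 0.0245). Adam17, a sheddase of membrane proteins, was the third that rose (0.54, SE 0.0895, limma adjusted p 0.00636), and Ctsg the third that fell. Of 13 chemokine and receptor genes with other names, 11 were tested and 3 called, all higher: Cd74 (0.81, SE 0.138, limma adjusted p 0.00691), a receptor of Mif; Cmklr1 (0.77, SE 0.115, 0.00426), the receptor of chemerin; and Cmtm3 (0.49, SE 0.0852, 0.00706). The median change over the 11 was 0.19, and 27.3% of them were called, beside 13.9% of all tested genes. The platelet chemokines Pf4 and Ppbp varied most within the groups, with Pf4 at 10.55 ± 0.565 in WT and 10.90 ± 0.643 in DM and Ppbp at 9.83 ± 0.752 and 10.02 ± 0.695 (SD, n = 3; limma adjusted p 0.497 and 0.771).

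Marker genes of the cell types in such cultures were read as well. Counts of called markers stand beside 13.9% of all tested genes called, 9.2% higher and 4.71% lower. In bulk RNA, fewer cells of a type and less RNA per cell cannot be told apart. Of 10 monocyte and macrophage markers 9 were tested and 7 called, all higher in DM. C1qa was below the filter and C1qb just above it. The log2 of the summed linear values of the list ran from 17.83 to 18.49 in WT and from 18.78 to 19.19 in DM. Lyz2 made up most of this sum, reading from 17.60 to 18.28 in WT and from 18.57 to 19.00 in DM. The changes of Csf1r (0.73, limma adjusted p 0.00415) and Adgre1 (0.63, 0.00423) were of a size between those of Ccl3 (0.54) and Ccl6 (0.78), and those of Lyz2 (0.86, 0.0176) and Cd68 (0.94, 0.00777) were above them. Ccr2, a gene of monocytes, fell while this list rose. All 9 neutrophil markers were called lower, with a median change of -1.66 and a summed level from 18.36 to 18.85 in WT and from 16.64 to 17.65 in DM, beside the falls of Cxcr2 and Cxcr4. Of 5 eosinophil markers 3 were called, all lower (Epx, Prg3 and Prg2), with a summed level from 14.97 to 15.09 in WT and from 13.46 to 14.06 in DM. Ccl24, which attracts eosinophils and is not in this list, also fell, while its receptor Ccr3 was not called (-0.11, limma adjusted p 0.305). The part of these shifts in the changes of the members was not tested.

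None of 7 mast cell and basophil markers was called (2 had an unadjusted p under 0.05), and their summed level ran from 18.71 to 19.09 in WT and from 18.74 to 19.21 in DM. Of 6 dendritic cell markers Cd209a and Siglech were below the filter, and 3 of the 4 tested were called, Itgax and Clec9a higher and Flt3 lower. The summed level ran from 11.70 to 12.60 in WT and from 12.91 to 13.18 in DM. It was almost that of Itgax alone (11.66 to 12.58 in WT and 12.89 to 13.17 in DM), so it does not stand for the list. Of 7 T and NK cell markers 5 were below the filter, and of the 2 tested Nkg7 was called lower (-1.89, limma adjusted p 0.000155). The summed level, mostly that of Nkg7, ran from 8.51 to 9.03 in WT and from 7.10 to 7.37 in DM. Of 5 megakaryocyte markers 4 were tested and Vwf (0.54, limma adjusted p 0.00667) and Gp1ba (0.55, 0.017) were called higher; their summed level ran from 14.09 to 14.29 in WT and from 14.39 to 14.72 in DM. Of 6 stem and progenitor markers Myb was called, lower (-0.65, limma adjusted p 0.0127), and of 5 erythroid markers none was called (0 at an unadjusted p under 0.05). Of 4 B cell markers 2 were below the filter. Of 7 stromal and endothelial markers Col3a1 was below the filter, Col1a1 was called lower (-0.37, limma adjusted p 0.043), and the summed level ran from 8.17 to 8.45 in WT and from 8.10 to 8.32 in DM. Kit, by which the cells were selected before culture, was at 14.39 ± 0.157 in WT and 14.60 ± 0.296 in DM (SD, n = 3; limma adjusted p 0.368), so its RNA was present in all libraries. No marker was listed at 0 in all libraries.

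**Figure D5:**
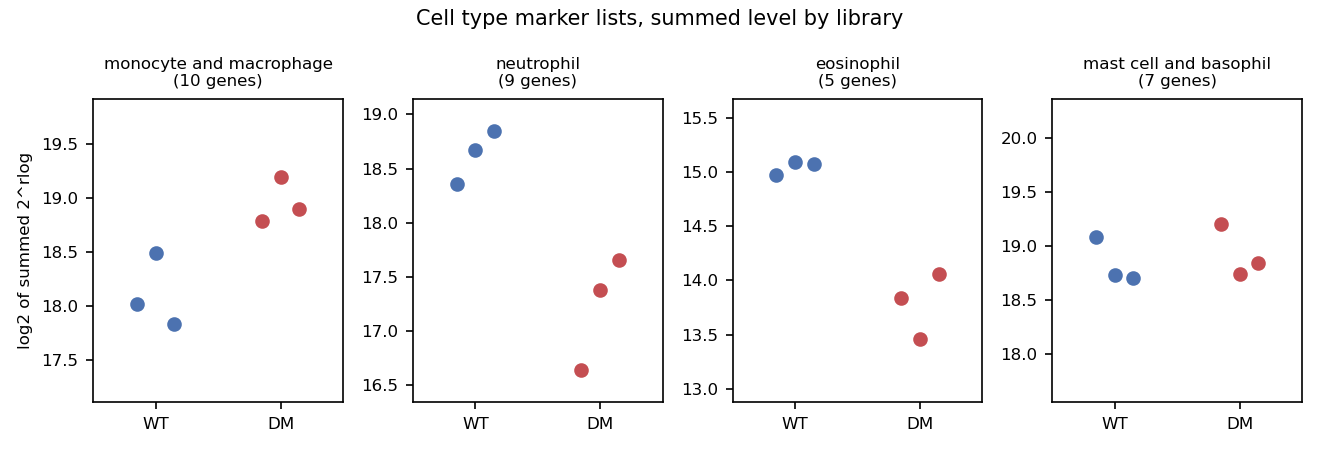
Level of 4 marker lists in each library (y axis, log2 of the sum of the rlog values taken to the linear scale, every panel spans the same range of 2.8), WT in blue and DM in red, replicates 1 to 3 from left to right. The monocyte and macrophage list, whose sum is mostly Lyz2, was higher in all DM libraries. The neutrophil and eosinophil lists were lower, and the mast cell and basophil list overlapped.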

How the data were processed

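Per the labels' protocols, AllPrep RNA went into Tecan total RNA libraries from which abundant transcripts were depleted. The deposited values are rlog values on the log2 scale made by the authors, read from the table's name and its values, which are not whole and run from -1.97 to 21.88. Per the submitters' processing notes, cutadapt 2.6, STAR 2.7.3, DESeq2 1.30.0 and the build mm10 were used; the counting tool, annotation and use of strand are not given in the sources used here. The 142699 lines, which repeat genes with identical values, were merged into 55487 genes, of which 7553 were listed at 0 throughout.

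DM was compared with WT by limma 3.58.1 in R 4.3.3 (lmFit, eBayes with a mean-variance trend, prior degrees of freedom 5.82) over the 18766 genes whose mean reached 3, two-sided, with Benjamini-Hochberg adjustment and a threshold of 0.05. The test was tested on simulated data. Alternatives were no filter, a mean of at least 5, no trend, quantile normalization, centring on library medians, a replicate block, and leaving out each library. GENCODE M21 supplied coordinates and exon lengths for 55 of 56 members, matched by versioned identifier, and RefSeq the promoters. Called members, and the 4 ligands and 4 receptors with the highest mean among those not called, are given in every library, except 1 receptor that is counted but not reported here; of each list up to 4 called genes with the largest changes are named, and further genes were named after their values were seen. The members and lists were chosen with earlier results of these data known. Figures were drawn with matplotlib 3.10.9.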

Additional observations from a re-analysis of the deposited data

How the results depend on the processing

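Over single libraries left out, the number of called members ran from 8 to 15 (14 with all libraries), of called ligands from 5 to 10, of called receptors from 2 to 5, and of all called genes from 1119 to 3475 (2611 with all libraries). It was 12 members with no filter and with no trend, 15 with a mean of at least 5, 11 after quantile normalization and 13 after centring. Among all called genes 66.1% were higher in DM, but 51.3% after quantile normalization, while the share among called members was 64.3% and 63.6%. Ccl9, Ccl3, Cxcl3, Cxcl16, Ccl24, Cxcr4 and Ccr2 kept their calls in all 12 alternatives.

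The sign turned only for members that were not called. After quantile normalization it did for Ccl7 (-0.0104), Cxcr1 (0.0412), Cxcr5 (0.0067) and Cxcr3 (0.015), and after centring for Cxcl5 (-0.0067). With single libraries left out it did for Ccl7 (from -0.0591 to 0.22), Ccl25 (from -0.0259 to 0.0718), Cxcl5 (from -0.0059 to 0.0717) and Cx3cr1 (from -0.0982 to 0.0199). The cause was not tested.

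With the replicate number as a block, 16 members were called, 10 ligands and 6 receptors, and 3742 genes in all; Ccr7 (limma adjusted p 0.0389) was added. Deviations from the group means correlated at 0.49, 0.12 and 0.04 between same-numbered libraries 1, 2 and 3. WT replicate 1 correlated at -0.34 with DM replicate 2 and at -0.16 with DM replicate 3. WT replicate 3 correlated more with DM replicate 2 (0.12) than with DM replicate 3. The labels do not say whether same-numbered libraries share an origin, and so few libraries cannot decide it. Depth is unknown, so changes of low members cannot be bounded.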

Other observations

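Among the WT libraries, replicate 2 had the highest value for 7 of the 9 members called higher in DM, and replicate 1 the lowest for 6 of them. The summed monocyte and macrophage markers, mostly Lyz2, were 18.02, 18.49 and 17.83 in WT replicates 1 to 3, so replicate 2 was the highest there too. The DM libraries did not share this order. There the summed markers, at 18.78, 19.19 and 18.90, also peaked in replicate 2. Yet DM replicate 2 was the highest of its group for 3 of the 9 members and the lowest for 4. For the 5 members called lower in DM, replicate 3 was the highest library in 4 cases in WT and in 4 cases in DM. The summed neutrophil markers, mostly S100a9 and S100a8, were 18.36, 18.67 and 18.85 in WT and 16.64, 17.38 and 17.65 in DM. This sum also peaked in replicate 3 of each group, but it does not stand for the list. In WT, S100a8, S100a9, Ltf, Camp and Ngp were highest in replicate 3. Cebpe was highest in WT replicate 2, and Mpo, Elane and Prtn3 were lowest in WT replicate 3. These orders are values of 6 libraries and were not tested.

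Ccr1l1, a relative of Ccr1 whose name falls outside the rule for members, was at a mean of 2.13, below the filter.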
